A study of Mus musculus with 20 samples.

Results

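The 10 libraries of cultured mouse T cells collected at week 1 were compared by lineage, 5 libraries of CD8 T cells against 5 of CD4 T cells, across all genes. They are 10 of the 20 libraries of the series and were chosen by their labelled time point and cell type, with no measured value used. Both lineages had been taken from spleen and inguinal lymph nodes with isolation kits and activated on plates coated with antibodies to CD3 and CD28 in 1 ng/mL IL-2. Polyclonal cells of albino B6 mice were activated for 72 h and receptor transgenic cells of the Marilyn-BLITC and MataHari-BLITC strains for 24 h. Marilyn carries a receptor of CD4 and MataHari one of CD8 T cells, and the labels do not say which library came from which mice, nor give an age or a sex of the animals. All week 1 cells were then expanded for 4 days with IL-15 (50 ng/mL) and IL-7 (10 ng/mL) and sorted for CD44+CD62L+ cells to a purity above 97%. Both groups share the coated plates, the cytokines and the sort, but mice and activation time may differ between the lineages and then cannot be told apart from them. The other 10 libraries came from the same procedure after 25 days (CD8, week 4) or 18 days (CD4, week 3) of expansion.

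CD8 T cells recognise peptides on MHC class I and kill the presenting cell with perforin and granzymes, while CD4 T cells recognise peptides on MHC class II and act mainly through cytokines and surface ligands such as CD40L. The split is made in the thymus, where the transcription factor ThPOK (gene Zbtb7b) maintains the CD4 fate and RUNX factors silence Cd4 and Zbtb7b in the CD8 lineage. In IL-7 and IL-15, activated cells of both lineages survive and divide with features of memory cells, and CD8 T cells in IL-15 are known to acquire receptors of natural killer (NK) cells.

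The week 1 libraries held 13.3 to 28 M counted reads for CD8 and 19.6 to 24.2 M for CD4. The labels give no replicate numbers, and those used here were assigned in sample order and only name libraries. The first principal component of the week 1 libraries (78.2% of the variance of the 1000 most variable genes) separated the lineages, with CD8 from -61.3 to -29.9 and CD4 from 29.1 to 57.6. CD8 replicate 3 (-29.9, the others -61.3 to -49.05) and CD4 replicate 2 (29.1, the others 51.4 to 57.6) stood apart from their groups, so results that rest on them are also given without them. The numbers in the sample titles fall into 3 ranges, that of CD8 replicates 1 to 3, that of CD8 replicates 4 and 5 and that of all CD4 libraries, so title range and lineage cannot be told apart. Nothing in the labels ties the libraries of a group to separate animals or cultures, so the p-values rest on a spread between libraries that may be technical only. Of the defining markers of other cells, Lyz2 and Csf1r (myeloid cells) and Ppbp (platelets) had no count in any week 1 library, and Ms4a1, Pax5 and Ebf1 (B cells) stood between 0 and 0.519 CPM (counts scaled to a common library total). The 6 B cell markers summed to more in CD8 (9.42 to 12.9 against 0.686 to 1.46 CPM), nearly all of it from Cd79b. The 7 myeloid markers summed to 49.7 to 111 CPM in CD8 and 46.9 to 51.9 CPM in CD4, mostly Cst3, and Cd68 was higher in CD8 (8.85 to 21.9 against 1.32 to 2.28 CPM). The sums of stroma and erythroid markers were higher in CD4. The 4 stroma markers stood at 153 to 252 CPM in CD4 against 68.1 to 105 CPM in CD8, nearly all of it from Pecam1 (CD31). The 4 erythroid markers stood at 0.25 to 2.14 against 0 to 0.075 CPM, nearly all of it from Hba-a1. Col3a1, of stroma, had no count in any week 1 library. The 3 platelet markers, Ppbp among them, summed to 1.34 to 2.86 CPM in CD8 and 1.815 to 2.625 CPM in CD4. Of 4 gamma delta T cell markers 2 were found, and they summed to 5.1 to 8.3 CPM in CD8 and 3.62 to 5.52 CPM in CD4. The part of these cells in the results was not tested.

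CD8 libraries held more RNA of the cytotoxic granule, of NK-type receptors and of glycolysis, and CD4 libraries more RNA of ThPOK, Runx1, CD40L and of genes of naive and memory cells. Of 13290 genes tested, 2538 (19.1%) were higher in CD8 and 2526 (19%) higher in CD4, 5064 in all (38.1%). A gene is termed called where edgeR's quasi-likelihood test gave a Benjamini-Hochberg adjusted p under 0.05. Values with ± are means and SD over the 5 libraries of a group, and folds are ratios of fitted levels. The numbers of calls were nearly equal but their sizes were not: 1223 genes were higher in CD8 by at least 2-fold and 699 in CD4, and at 16-fold or more the counts were 194 and 46. The median over all genes tested was -0.0064 on the log2 scale. The 5 CD8 and 5 CD4 libraries did not overlap for 3151 genes (23.7%), of which 1645 stood higher in CD8 and 1506 in CD4. With CD8 replicates 1 to 3 alone, 2014 genes were called higher in CD8 and 1714 in CD4, and with CD8 replicates 4 and 5 alone the counts were 2129 and 1658, against the same 5 CD4 libraries. Without both libraries that stand apart, an alternative chosen after the data were seen, 3096 and 3102 genes were called, among them 93.9% of the 2538 and 90.4% of the 2526. The plot of level against difference shows the coreceptors and NK-type receptors at its edges.

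**Figure D1:**
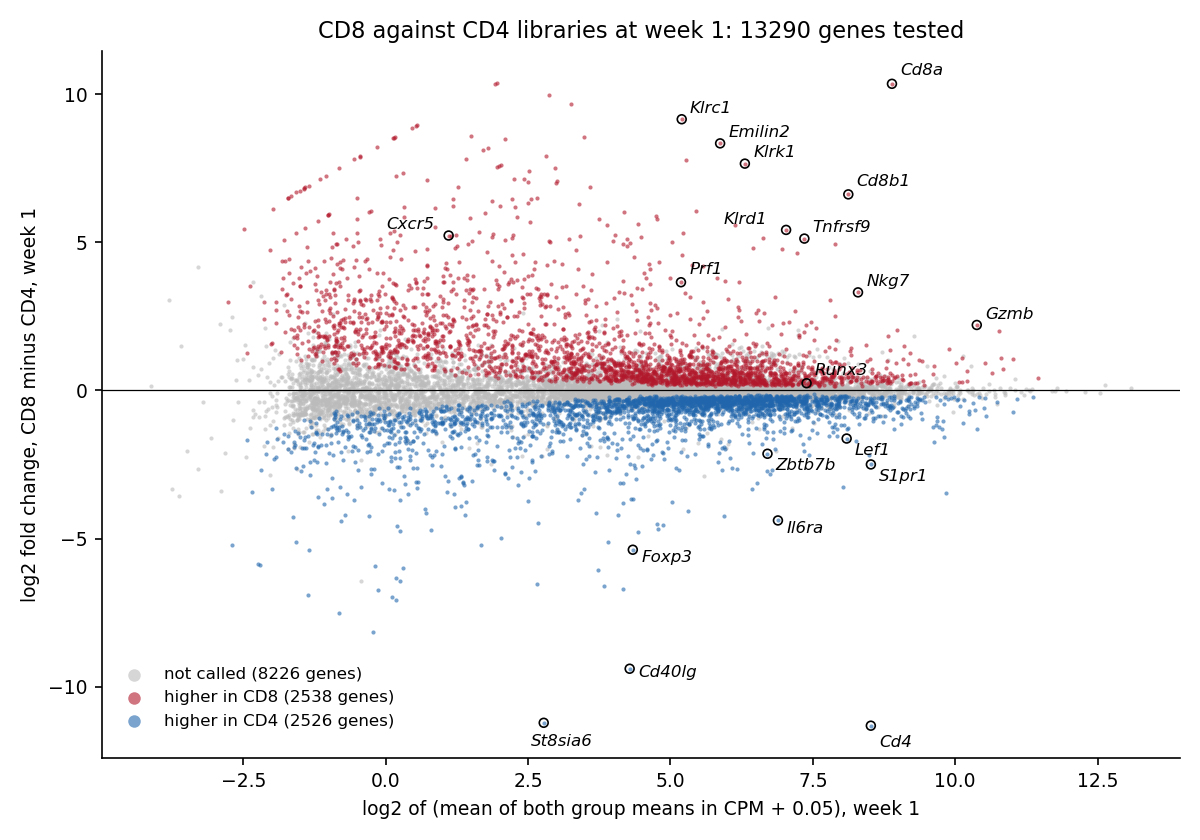
Each point is 1 of the 13290 genes tested, with the log2 of the mean level of both week 1 groups on the x axis and the log2 fold change of CD8 minus CD4 on the y axis. Red genes were called higher in CD8 (2538), blue genes higher in CD4 (2526) and grey genes were not called (8226), and the differences of the coreceptors reach 10.35 on the log2 scale for Cd8a and -11.31 for Cd4.

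The coreceptor genes checked the labels. Cd8a, which encodes the CD8 alpha chain, stood at 830.0, 747, 1311, 905 and 942 CPM in the CD8 libraries and at 1.37, 1.88, 0.05, 0.0806 and 0.25 CPM in the CD4 libraries. The highest CD4 value lay far below the lowest CD8 value, and CD8 replicate 3 was the highest. Cd8a was 1302-fold higher in CD8 (log2 fold change 10.35, SE 0.99, adjusted p 4.44e-07, no overlap; 11.02 without CD4 replicate 2). Cd8b1, the beta chain gene next to it on chromosome 6, was measured at 459.4, 475, 755, 522 and 546 CPM in CD8 and at 6.68, 8.51, 4.5, 3.91 and 4.5 CPM in CD4 libraries. Its level in CD4 was low but present in every library, and the difference was 98.1-fold (log2 fold change 6.62, SE 0.54, adjusted p 7.6e-08, no overlap). Cd4 stood at 903, 824, 597, 653 and 687 CPM in the CD4 libraries and at 0.57, 0.298, 0.117, 0.283 and 0.0753 CPM in the CD8 libraries. All 10 libraries thus carried the coreceptor of their label, and Cd4 was 2538-fold higher in CD4 (log2 fold change -11.31, SE 0.32, adjusted p 7.29e-12, no overlap). In bulk RNA, fewer cells of a type and less RNA per cell cannot be told apart, so the low levels of the opposite coreceptor do not say how many cells carry it.

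Of 16 tested coreceptor and lineage genes, 9 were higher in CD4, 3 higher in CD8 and 4 not called (median -0.58). Called members made up 75% of them, against 38.1% of all genes. Zbtb7b, the gene of ThPOK, stood at 181, 187, 143, 162 and 174 CPM in CD4 and at 40.2, 54.8, 16.2, 39 and 43 CPM in CD8 libraries. It was detected in every CD8 library at a lower level, with CD8 replicate 3 the lowest (4.39-fold higher in CD4; log2 fold change -2.13, SE 0.48, adjusted p 0.00192, no overlap). Of the RUNX genes, Runx1 was called and Runx3 was not. Runx1, a RUNX factor of T cell development, stood at 94.3, 88.1, 89.7, 103 and 91.3 CPM in CD4 and 20.1, 24.1, 24.2, 22.3 and 17.5 CPM in CD8 (log2 fold change -2.11, SE 0.17, adjusted p 4.88e-08, no overlap). Runx3, the RUNX factor of the CD8 lineage, stood at 152, 175, 175, 208 and 199.5 CPM in CD8 and 130.1, 195, 145, 154 and 143 CPM in CD4, and the groups overlapped. Its log2 fold change of 0.24 (SE 0.12) was not called (adjusted p 0.114), but was without CD4 replicate 2 (0.35, 0.0223) and with CD8 replicates 4 and 5 alone (0.43, 0.0447), with adjusted p-values from 0.0219 to 0.48 over all alternatives. Here and below, ranges and highest values over all alternatives leave out a test against a 1.5-fold difference, which is given at the end. Per length, Runx3 held 115 TPM (a level per transcript length) against 5.77 TPM for Runx1 in CD8, and 98.7 against 25.5 TPM in CD4. Cbfb, the partner subunit of all RUNX proteins, did not pass the test (262 ± 17.5 against 249 ± 37.3 CPM; adjusted p 0.625).

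The other lineage factors were mostly higher in CD4. Gata3, a factor of CD4 commitment and of T helper type 2 cells, stood at 98, 180.1, 105, 115 and 84.1 CPM in CD4 and 48.7, 55.1, 21.2, 55 and 55.3 CPM in CD8 (log2 fold change -1.31, SE 0.23, adjusted p 0.000269, no overlap), with CD8 replicate 3 well below the rest. Tox, a nuclear factor needed for CD4 lineage development, was 4.05-fold higher in CD4 (36.5 ± 15.1 against 8.99 ± 2.62 CPM; adjusted p 0.00291; -1.85 and 0.0642 with CD8 replicates 4 and 5 alone, 0.000154 to 0.0642 over all alternatives). Bcl11b, a factor of T cell identity, was measured at 371, 365, 353, 376 and 369 CPM in CD4 and at 158, 154, 89.7, 209 and 204 CPM in CD8 (log2 fold change -1.17, SE 0.16, adjusted p 2.58e-05, no overlap). The CD4 libraries were close together and the CD8 libraries spread, with replicate 3 the lowest. Lef1, partner of TCF1 in naive and memory T cells, was 3.08-fold higher in CD4 (412 ± 27.4 against 134 ± 22.1 CPM; adjusted p 1.55e-06). Tcf7, which encodes TCF1, was not called (-0.43, adjusted p 0.146; 281, 309.8, 508, 422 and 379.6 CPM in CD8 and 632, 481, 433, 524 and 490.2 in CD4). Satb1, a chromatin organiser of thymocytes, and Patz1, a repressor of the BTB zinc finger family, were higher in CD4 by 1.65- and 1.31-fold (adjusted p 0.00281 and 0.0164). Both calls were lost with CD8 replicates 4 and 5 alone (-0.54 and -0.21; adjusted p 0.107 and 0.168, the highest of all alternatives for both). Myb, a factor of progenitors and memory CD8 T cells, was the only transcription factor of the list higher in CD8 (37.2, 47.1, 16.6, 36 and 27.5 against 12.8, 10.7, 6.25, 4.92 and 7.96 CPM; log2 fold change 1.94, SE 0.48, adjusted p 0.00409, no overlap). Tle3, a corepressor of RUNX and TCF factors, was not called (200.4 ± 54.7 and 186 ± 9.19 CPM; adjusted p 0.594).

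**Figure D2:**
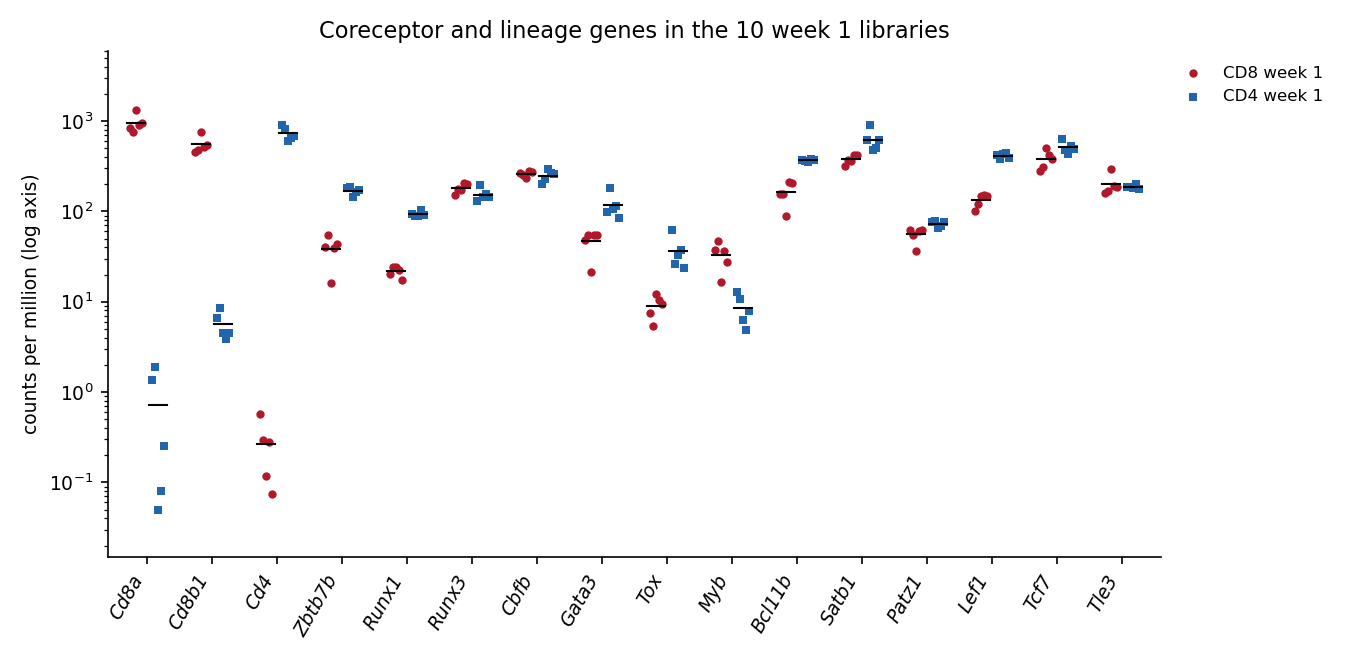
CPM (log axis) of the 16 coreceptor and lineage genes in each week 1 library, with CD8 libraries as red circles, CD4 libraries as blue squares and group means as black bars (n = 5 each). Cd8a, Cd8b1 and Cd4 are separated by 98.1-fold or more, Zbtb7b and Runx1 by 4.39- and 4.31-fold, and Runx3, Cbfb, Tcf7 and Tle3 overlap.

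The genes of the cytotoxic granule were higher in CD8. Of 27 genes, 24 passed the filter on low counts, and 12 of them were higher in CD8, 2 higher in CD4 and 10 not called (median 1.61). Tested members were called in 58.3% of cases, against 38.1% of all genes. The summed level was 4402 to 5618 CPM in CD8 and 1881 to 2435 CPM in CD4. Prf1, which encodes the pore-forming perforin, stood at 71.7, 104, 63.7, 49.6 and 46.8 CPM in CD8 and 8.17, 3.76, 4.7, 5.57 and 4.46 CPM in CD4. No CD4 library came near the CD8 libraries, and Prf1 was 12.6-fold higher in CD8 (log2 fold change 3.65, SE 0.31, adjusted p 9.77e-08, no overlap). Gzmb, Nkg7 and Gzma, named here after their values were seen, differed in degree. Gzmb, the granzyme that activates caspases, was abundant in both lineages at 2621, 2403, 2217, 1804 and 1898 CPM in CD8 and 291, 726, 498, 261 and 588 CPM in CD4 (log2 fold change 2.21, SE 0.46, adjusted p 0.00118, no overlap). Per length it held 4864 TPM in CD8 and 1069.2 TPM in CD4, against 103 and 8.38 TPM for Prf1. CD4 libraries thus held Gzmb at a level above that of Prf1 in CD8 libraries. Nkg7, a granule membrane protein, stood at 542, 615, 518, 562 and 610.5 CPM in CD8 and 42.9, 39.4, 89.9, 92.9 and 22 CPM in CD4 (log2 fold change 3.31, SE 0.41, adjusted p 8.16e-06, no overlap). Gzma, a tryptase of the granule, stood at 109, 124, 23, 44.1 and 61.3 CPM in CD8 and 0.954, 6.07, 1.8, 0.242 and 0.125 CPM in CD4, and each group spanned several-fold (log2 fold change 5.32, SE 1.07, adjusted p 0.00082, no overlap; 6.57 without CD4 replicate 2, its highest CD4 library).

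Gzmm, a granzyme of innate-like killer cells, was 9.5-fold higher in CD8 (10 ± 3.22 against 1.05 ± 0.441 CPM; adjusted p 3.82e-07). Crtam, an adhesion receptor of activated killer cells, stood at 42.6, 52.1, 31.4, 35.2 and 34.6 CPM in CD8 and 3.53, 3.06, 2.55, 2.94 and 5.71 CPM in CD4 (log2 fold change 3.46, SE 0.29, adjusted p 9.72e-08, no overlap). Serpinb9, the inhibitor that protects killer cells from their own granzyme B, was 3.28-fold higher in CD8 (106 ± 13.5 against 32.4 ± 5.38 CPM; adjusted p 1.09e-07). Fasl, the death ligand that kills through Fas, was 8.94-fold higher in CD8 (72.8 ± 8.03 against 8.14 ± 5.75 CPM; adjusted p 1.55e-06), with CD4 replicate 2 the highest CD4 library at 18.2 CPM. General parts of the granule did not follow. Lamp1, a membrane protein of lysosomes, was 1.38-fold higher in CD4 (adjusted p 0.0115), and that call was lost with CD8 replicates 1 to 3 alone (-0.38, 0.0974, the highest of all alternatives). Srgn, the proteoglycan core of the granule, was not called (293 ± 53.3 against 253 ± 79.5 CPM; adjusted p 0.322); without CD4 replicate 2 it was (0.41, 0.0251; 0.0251 to 0.953 over all alternatives).

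RUNX factors are known to bind the core TGTGGT, which was looked up in the promoters. RefSeq promoters (GRCm38.p6, 250 bases before to 50 after the start) were matched for 9568 of the 13290 genes tested, of which 15.6% held TGTGGT on either strand. The core was found for 15 of 21 matched cytotoxic granule genes (71.4%), 9 of 15 NK-type receptor genes (60%) and 2 of 15 helper genes (13.3%). Several granzymes and several NK-type receptors are tandem copies of each other, so their promoters are not independent. Over all genes called higher in CD8 the share was 17.6% and over those higher in CD4 14.6%; at 4-fold or more it was 24.9% and 20.1%. The T-box site AGGTGTGA was held by 1.07% of all promoters, 1.57% of the CD8-higher and 1.08% of the CD4-higher genes. For the GATA site AGATAA the shares were 7.81%, 8.88% and 7.70%, and for the TCF/LEF site CTTTGAT 3%, 2.93% and 2.66%. No motif contains another on either strand, and a match is a description of the sequence, not a binding site. The promoters of Prf1, Gzmm and Serpinb9 are shown as cytotoxic genes that were higher in CD8, and those of Runx3 and Zbtb7b as the lineage factors, each 5′ to 3′ on the strand of its gene with the matched motif in capitals (on the opposite strand the RUNX core reads ACCACA). Gzmm, Runx3 and Zbtb7b have 2 promoters each in the table, and the one with the RUNX core is shown; the other of Gzmm holds 2 GATA sites and no RUNX core, and those of Runx3 and Zbtb7b hold none of the 4 motifs. A gene with several promoters was counted as holding a motif where any of them did. All 5 promoters shown hold the core, which did not always go with a higher level in CD8. Gzma, Gzmb and Nkg7, higher in CD8, held it. So did Lamp1, higher in CD4, and Srgn, not called, in 1 of its 2 promoters. Fasl, higher in CD8, held none of the 4 motifs.
Prf1, chr10:61297586-61297885, plus strand: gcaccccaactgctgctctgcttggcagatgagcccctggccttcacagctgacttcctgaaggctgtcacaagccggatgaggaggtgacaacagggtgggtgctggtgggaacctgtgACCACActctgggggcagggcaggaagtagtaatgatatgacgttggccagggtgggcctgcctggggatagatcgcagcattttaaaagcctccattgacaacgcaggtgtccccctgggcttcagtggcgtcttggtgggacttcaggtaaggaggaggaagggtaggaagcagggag
Gzmm, chr10:79688770-79689069, plus strand: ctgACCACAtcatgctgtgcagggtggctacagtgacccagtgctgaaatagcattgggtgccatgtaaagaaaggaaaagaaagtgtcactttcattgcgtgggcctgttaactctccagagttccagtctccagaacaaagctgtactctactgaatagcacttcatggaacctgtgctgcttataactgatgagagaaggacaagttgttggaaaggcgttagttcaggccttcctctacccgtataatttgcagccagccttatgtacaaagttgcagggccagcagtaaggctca
Serpinb9, chr13:33004291-33004590, plus strand: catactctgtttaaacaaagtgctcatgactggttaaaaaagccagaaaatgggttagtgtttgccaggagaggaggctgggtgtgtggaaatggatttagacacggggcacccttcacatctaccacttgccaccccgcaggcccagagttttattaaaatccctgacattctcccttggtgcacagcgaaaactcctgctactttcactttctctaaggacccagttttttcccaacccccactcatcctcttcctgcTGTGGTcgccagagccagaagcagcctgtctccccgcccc
Runx3, chr4:135120395-135120694, plus strand: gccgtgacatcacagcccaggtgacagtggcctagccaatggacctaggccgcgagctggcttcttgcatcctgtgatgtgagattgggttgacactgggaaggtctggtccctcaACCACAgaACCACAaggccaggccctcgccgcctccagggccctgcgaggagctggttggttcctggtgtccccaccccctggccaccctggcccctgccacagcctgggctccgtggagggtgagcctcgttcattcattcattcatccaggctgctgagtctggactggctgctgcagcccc
Zbtb7b, chr3:89387622-89387921, minus strand: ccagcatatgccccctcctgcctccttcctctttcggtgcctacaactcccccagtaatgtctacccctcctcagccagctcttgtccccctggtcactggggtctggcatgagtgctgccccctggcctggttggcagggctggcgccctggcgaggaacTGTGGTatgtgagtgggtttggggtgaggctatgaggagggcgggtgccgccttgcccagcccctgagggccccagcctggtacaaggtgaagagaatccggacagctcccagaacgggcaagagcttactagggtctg

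NK-type receptors had the largest median difference of the 29 lists. Of 28 genes, 20 passed the filter, and 18 of these were higher in CD8 and 2 not called, with a median log2 fold change of 5.82. This is 90% called, against 38.1% of all genes. The filter keeps a gene counted in a single group, so members barely counted in CD4 passed it through the CD8 libraries. The count and the median rest in part on that. The Klr genes described here all lie on chromosome 6. Klrk1, which encodes the activating receptor NKG2D, stood at 173, 180.4, 139, 149.9 and 144 CPM in CD8 and 1.12, 1.79, 0.3, 0.282 and 0.417 CPM in CD4. The CD8 libraries were close together and all far above CD4 (201-fold; log2 fold change 7.65, SE 0.43, adjusted p 6.02e-10, no overlap). Its adaptor Hcst (DAP10) did not pass the test, at 42.8, 57.1, 75, 47.8 and 47.5 CPM in CD8 and 59.3, 50, 55.2, 63.2 and 44.3 CPM in CD4 (log2 fold change -0.0092, adjusted p 0.963). Klrd1 (CD94), the shared partner of the NKG2 receptors, stood at 227, 278, 328, 224 and 219 CPM in CD8 and 9.46, 7.67, 5.25, 4.88 and 2.58 CPM in CD4 (42.8-fold; log2 fold change 5.42, SE 0.39, adjusted p 1.25e-08, no overlap). It was detected in all 5 CD4 libraries at a low level. Klrc1, the inhibitory receptor NKG2A, stood at 63.3, 97.4, 57.4, 85.5 and 62.1 CPM in CD8 and at 0.166, 0.0941, 0.2, 0.0403 and 0.125 CPM in CD4 (569-fold; log2 fold change 9.15, SE 0.40, adjusted p 1.52e-11, no overlap). Klrc2, its activating relative NKG2C, was 195-fold higher (7.97 ± 1.62 against 0.0364 ± 0.041 CPM; adjusted p 6.02e-10; log2 fold change 7.61, and 8.21 without CD4 replicate 3).

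Klra7, a Ly49 receptor of MHC class I, was measured at 21.2, 12.8, 10.4, 11.7 and 13.6 CPM in CD8 and at 0.0415, 0.0941, 0, 0.0403 and 0.0833 CPM in CD4 (log2 fold change 7.90, SE 0.72, adjusted p 2.63e-07, no overlap). Klre1, which forms receptors with Klri chains, was 129-fold higher in CD8 (log2 fold change 7.01, and 7.81 without CD4 replicate 3). Klrb1c (NK1.1) stood at 19.4, 20.3, 2.7, 7.28 and 6.78 CPM in CD8, high in replicates 1 and 2 and lowest in replicate 3, and at 0.0415, 0.188, 0.05, 0.0403 and 0 CPM in CD4 (log2 fold change 7.39, SE 0.92, adjusted p 8.42e-06, no overlap; 8.21 without CD4 replicate 2 and 6.74 with CD8 replicates 4 and 5 alone). Klri2 had 1 count in all CD4 libraries together against 2.49, 1.91, 1.35, 3.25 and 2.79 CPM in CD8, 279.7 times as much (95% counting interval 49.7 to 11095). Klrb1f, the other member not called, stood at 1.62 ± 0.366 and 0.952 ± 0.567 CPM (adjusted p 0.143, and 0.043 without CD4 replicate 2; 0.043 to 0.312 over all alternatives). Reads that map to several members of these families were not counted, so levels of near-identical copies such as Klra and Klrc genes are uncertain. The 5 NK cell markers summed to more in CD8 (158 to 345 against 0.333 to 22.8 CPM), nearly all of it from Eomes and Klrb1c, which activated CD8 T cells are also known to express. Of the other 3, Ncr1 stood at 0.0753 to 0.467 CPM in CD8 and had no count in CD4, and Klra8 and Klra4 stayed at or below 0.358 CPM.

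The factors of effector and memory T cells were mainly higher in CD8: of 27 tested, 15 were higher in CD8, 6 in CD4 and 6 not called (median 0.35). Together 77.8% were called, against 38.1% of all genes. Eomes and Tbx21, the T-box factors of cytotoxic cells, are named after their values were seen. Eomes stood at 138, 148, 342, 161 and 166 CPM in CD8 and 0.913, 22.6, 2.85, 0.887 and 0.333 CPM in CD4. CD8 replicate 3 was the highest CD8 library and CD4 replicate 2 stood far above the other CD4 libraries (log2 fold change 5.13, SE 0.88, adjusted p 0.000201, no overlap; 7.30 without CD4 replicate 2). Tbx21 (T-bet) differed less, at 94.9, 109, 50.5, 61.8 and 63 CPM in CD8 and 23.6, 48.8, 24.5, 22.9 and 30.3 CPM in CD4 (log2 fold change 1.34, SE 0.30, adjusted p 0.00183, no overlap), and CD4 replicate 2 came close to the lowest CD8 library. Zeb2, a factor of terminal effector cells, stood at 10.9, 10.1, 5.63, 4.92 and 3.46 CPM in CD8 and 0.083, 0.8, 0.05, 0.0403 and 0 CPM in CD4 (log2 fold change 5.18, SE 0.84, adjusted p 0.000126, no overlap; 7.17 without CD4 replicate 2 and 4.46 with CD8 replicates 4 and 5 alone). Ikzf2 (Helios), a factor also found in regulatory T cells, was 5.62-fold higher in CD8 (14.9 ± 4.08 against 2.66 ± 0.616 CPM; adjusted p 7.7e-07). Hopx, a cofactor of effector and memory cells, was 2.72-fold higher in CD8 (121 ± 20.6 against 44.4 ± 6.46 CPM; adjusted p 8.59e-07). In the other direction, Ets1, a factor of quiescent lymphocytes, stood at 1089, 1150, 1077, 1082 and 1077.6 CPM in CD4 and 503, 481, 431, 641 and 638 CPM in CD8 (log2 fold change -1.02, SE 0.10, adjusted p 9.72e-07, no overlap). Foxo1, which maintains homing and survival genes, was 1.75-fold higher in CD4 (258 ± 28 against 147 ± 18.4 CPM; adjusted p 4.63e-06).

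**Figure D3:**
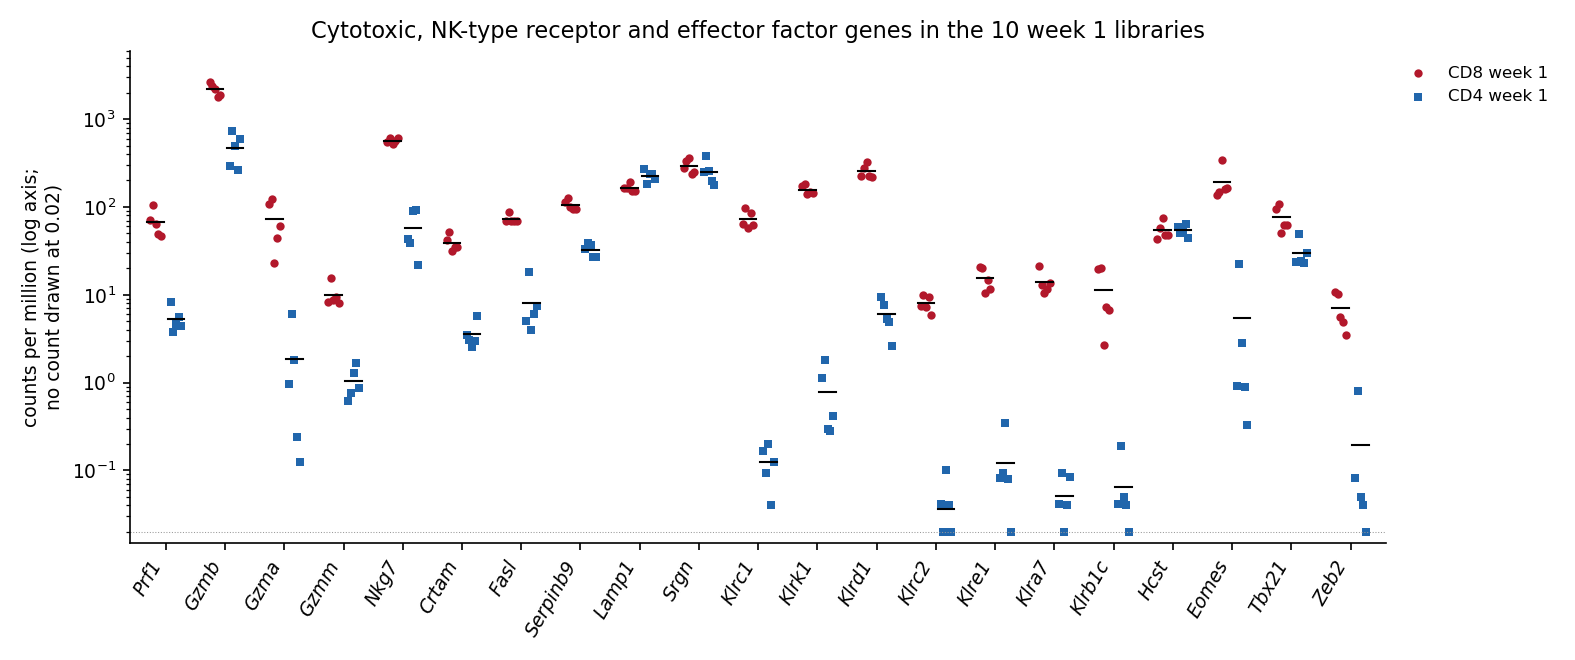
CPM (log axis) of genes of killing, NK-type receptors and effector transcription factors in each week 1 library, with CD8 as red circles, CD4 as blue squares, means as black bars (n = 5 each) and libraries with no count drawn at 0.02. Klrc1, Klrc2, Klra7 and Klrb1c lie at or below 0.2 CPM in the CD4 libraries, Gzmb is at or above 261 CPM in all 10 libraries, and Hcst and Srgn overlap.

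Helper genes were split. Of 32 members, 19 passed the filter, and 9 were higher in CD4, 4 higher in CD8 and 6 not called (median -0.78). Calls covered 68.4% of the tested helper genes, against 38.1% of all genes. Cd40lg, the ligand by which CD4 T cells license B cells and dendritic cells, stood at 51.4, 29.4, 34.1, 41.5 and 37.5 CPM in CD4 and at 0, 0.119, 0, 0.106 and 0 CPM in CD8, where 3 libraries had no count. It was 669.7-fold higher in CD4 (log2 fold change -9.39, SE 0.39, adjusted p 7.29e-12, no overlap; -10.08 without CD8 replicate 4). Tnfsf8 (CD30 ligand) was 1.72-fold higher in CD4 (251 ± 18.1 against 146 ± 15.8 CPM; adjusted p 4.19e-05). Maf, a factor of T helper type 2 and follicular cells, stood at 3.57, 20.1, 5.35, 7.14 and 2.54 CPM in CD4, with replicate 2 the highest, and at 0.674, 0.715, 0.703, 1.41 and 1.43 CPM in CD8 (log2 fold change -2.96, SE 0.58, adjusted p 0.000638, no overlap; -2.23 without CD4 replicate 2). Cxcr5, the follicle homing receptor known from follicular helper cells, was higher in CD8, at 6.02, 4.35, 2.11, 3.43 and 4.59 CPM against 0.0415, 0.047, 0, 0.161 and 0.25 CPM in CD4. All 5 CD8 libraries were above all CD4 libraries, at low levels (log2 fold change 5.23, SE 0.58, adjusted p 2.24e-06, no overlap; 5.84 without CD4 replicate 5). Ccr4, a receptor of T helper type 2 cells, was not called (2.78, 35.5, 9.1, 16.8 and 21.8 CPM in CD4 and 7.36, 13.2, 7.21, 5.09 and 4.89 CPM in CD8; adjusted p 0.0758). It was called by DESeq2 (0.0458), without CD8 replicate 2 (-1.48, 0.0467) and without CD4 replicate 1 (-1.46, 0.0176; 0.0176 to 0.31 over all alternatives). Bcl6, the factor of follicular helper cells, was not called either (3.84 ± 1.65 against 3.38 ± 0.626 CPM; adjusted p 0.699).

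Foxp3, the factor of regulatory T cells, varied widely among the CD4 libraries, at 30.3, 6.73, 53.6, 100.3 and 6.08 CPM, against 0.156, 0.179, 2.29, 1.13 and 0.979 CPM in CD8. Replicates 2 and 5 were low and replicate 4 high, and the groups still did not overlap (log2 fold change -5.37, SE 1.14, adjusted p 0.00122, no overlap; -4.67 without CD4 replicate 4 and -5.96 without CD8 replicate 3). Genes of regulatory T cells as a list went both ways: of 17 tested, 5 were higher in CD8, 3 higher in CD4 and 9 not called (median -0.21). The share called was 47.1%, against 38.1% of all genes. Il2ra (CD25) was not called (522, 467, 933, 846 and 609 CPM in CD4 and 378, 495, 753, 409 and 334 CPM in CD8; adjusted p 0.126), but was without CD8 replicate 3 (-0.74, 0.0233; 0.0118 to 0.469 over all alternatives). Itgae (CD103), an integrin that binds E-cadherin, was 13.5-fold higher in CD8 (8.49 ± 2.85 against 0.627 ± 0.37 CPM; adjusted p 0.000232). The share of regulatory T cells in the CD4 cultures was not tested.

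The TNF receptors and ligands divided between the lineages, with 10 of 23 tested higher in CD8, 9 higher in CD4 and 4 not called. That made 82.6% called, against 38.1% of all genes. Tnfrsf9 (4-1BB), a costimulatory receptor, stood at 236, 371, 248, 359 and 372 CPM in CD8 and 7.59, 21.8, 12, 2.18 and 2.08 CPM in CD4 (34.9-fold; log2 fold change 5.13, SE 0.99, adjusted p 0.000597, no overlap; 5.74 without CD4 replicate 2). Tnfrsf4 (OX40), a costimulatory receptor of the same family, went the other way, at 94.8, 124, 110.5, 93.7 and 121 CPM in CD4 and 28.7, 29.1, 14.5, 22 and 18.8 CPM in CD8 (4.81-fold; log2 fold change -2.26, SE 0.23, adjusted p 1.12e-06, no overlap). Neither gene showed an overlap of the groups. Tnfrsf25 (DR3), the receptor of TL1A, was 23.4-fold higher in CD4 (61.9, 42.4, 60.7, 59.9 and 55.7 CPM against 0.467, 1.01, 8.5, 1.38 and 0.678 CPM; adjusted p 1.81e-05), where CD8 replicate 3 was the highest CD8 library (log2 fold change -4.55, and -5.93 without it). Tnfrsf1b, a receptor of TNF itself, was 2.43-fold higher in CD8 (138 ± 19.1 against 56.9 ± 14.5 CPM; adjusted p 1.26e-05). Ltb, which encodes lymphotoxin beta, was 1.94-fold higher in CD4 (632 ± 77.9 against 325 ± 54.7 CPM; adjusted p 8.23e-05). Fas was not called (24.8 ± 2.74 and 30.8 ± 7.33 CPM; adjusted p 0.158).

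The T cell receptor and its near signalling differed in both directions: of 26 tested, 5 were higher in CD8, 7 higher in CD4 and 14 not called (46.2% called, against 38.1% of all genes; median -0.11). Cd5, a negative regulator of receptor signalling, stood at 452, 374, 315, 284 and 376 CPM in CD4 and 133, 125, 109.7, 123 and 126 CPM in CD8 (2.92-fold; log2 fold change -1.55, SE 0.12, adjusted p 5.82e-08, no overlap). Themis, a regulator of receptor signals in thymocytes, stood at 538, 585, 472, 519 and 473 CPM in CD8 and 169.9, 162, 144, 178 and 234 CPM in CD4 (2.91-fold; log2 fold change 1.54, SE 0.16, adjusted p 1.01e-06, no overlap). Ptpn22, a phosphatase that dampens the receptor kinases, was 1.63-fold higher in CD8 (396 ± 43.9 against 244 ± 26.9 CPM; adjusted p 1.21e-05). The adhesion molecules Cd6 and Cd2 were 1.52- and 1.4-fold higher in CD4 (adjusted p 0.00298 and 0.00379), with overlap between the groups. The phosphatase gene Ptprc (CD45) and the receptor constant gene Trbc2 were not called (log2 fold changes 0.035 and -0.034; adjusted p 0.737 and 0.717).

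The receptors of the culture cytokines IL-2, IL-7 and IL-15 were compared next. Il2rb, the beta chain that IL-2 and IL-15 share, was not called (1113, 1091, 1206, 1004 and 1032 CPM in CD8 and 659, 845, 1112, 1153 and 1192 CPM in CD4; adjusted p 0.598), and the CD4 libraries spanned more than the CD8 libraries. Il7r, whose protein binds IL-7 itself, named after its values were seen, stood at 192, 398, 125, 129 and 155 CPM in CD4 and 102, 140.5, 36.4, 63.6 and 45.2 CPM in CD8. CD8 replicate 2 overlapped with the lower CD4 libraries, and Il7r was 2.57-fold higher in CD4 (log2 fold change -1.36, SE 0.43, adjusted p 0.0176, with overlap). The call was lost without CD4 replicate 2 (-0.95, 0.0681), without both libraries that stand apart (-0.77, 0.125) and with CD8 replicates 1 to 3 alone (-1.08, 0.128; 0.00466 to 0.128 over all alternatives). Of 26 cytokine receptor genes tested, 10 were higher in CD4, 7 higher in CD8 and 9 not called. In all, 65.4% of this list were called, against 38.1% of all genes. Il4ra was 1.69-fold higher in CD4 (812, 888, 789, 898 and 872 CPM against 506, 499, 573, 455 and 489 CPM; adjusted p 6.74e-06) and Il27ra 1.57-fold (adjusted p 6.41e-05). Il18rap, the accessory chain of the IL-18 receptor, stood at 140.4, 177, 169, 155 and 144 CPM in CD8 and 37.4, 46.6, 25.7, 24.9 and 20.2 CPM in CD4 (5.07-fold; log2 fold change 2.34, SE 0.35, adjusted p 5.38e-05, no overlap). Both chains of the IL-10 receptor were higher in CD8, Il10ra by 1.74-fold and Il10rb by 1.77-fold (adjusted p 0.000145 and 3.19e-05). Il6ra, the IL-6 receptor, stood at 270.2, 108, 247, 339 and 164 CPM in CD4 and 0.207, 0.417, 44, 5.87 and 3.69 CPM in CD8, where replicate 3 held most of it (log2 fold change -4.38, SE 1.11, adjusted p 0.00462, no overlap; -6.41 without CD8 replicate 3).

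Of 21 JAK, STAT and SOCS genes, 5 were higher in CD8, 4 higher in CD4 and 12 not called, close to the 38.1% called over all genes. Those higher in CD4 included feedback inhibitors that cytokines induce. Socs2 stood at 244, 104, 418, 331 and 215 CPM in CD4 and 28.7, 35.2, 150.2, 55.4 and 46.8 CPM in CD8, with CD8 replicate 3 above CD4 replicate 2 (log2 fold change -2.05, SE 0.42, adjusted p 0.000962, with overlap; -2.66 without CD8 replicate 3). Socs3 was 2.33-fold higher in CD4 (adjusted p 0.00157), and its call was lost with CD8 replicates 4 and 5 alone (-0.98, 0.0709, the highest of all alternatives). The kinase genes Pim1 and Jak2 were 1.84- and 1.53-fold higher in CD4 (adjusted p 0.00303 and 0.00273), and for Jak2 CD4 replicate 2 was the highest at 304 CPM. Stat3 was 1.35-fold higher in CD8 (adjusted p 0.00829; 0.40 and 0.0767 with CD8 replicates 4 and 5 alone, the highest of all alternatives). Jak1, the kinase shared by the receptors of IL-2, IL-7 and IL-15, was not called (log2 fold change 0.15, adjusted p 0.142).

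Homing genes differed in both directions. Of 25 members, 18 passed the filter, with 7 higher in CD8, 4 in CD4 and 7 not called. Calls thus reached 61.1% of those tested, against 38.1% of all genes. S1pr1, the receptor by which T cells leave lymph nodes, stood at 708, 417, 658, 749.6 and 583 CPM in CD4 and 43.6, 70.7, 227, 113 and 98.8 CPM in CD8. CD8 replicate 3 was the highest CD8 library and the groups did not overlap (5.64-fold; log2 fold change -2.49, SE 0.41, adjusted p 0.00015, no overlap). S1pr4 was 2.68-fold higher in CD4 (276 ± 38.3 against 103 ± 19.3 CPM; adjusted p 8.81e-07). Cd44, a marker of the sort, was not called (130.2 ± 23.3 against 89.4 ± 12.5 CPM; adjusted p 0.144), but was with only the 10 week 1 libraries in the fit (0.0113; 0.0113 to 0.335 over all alternatives).

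Gcnt1, which makes the selectin ligands of effector cells, stood at 10.3, 11.2, 7.27, 7.57 and 8.21 CPM in CD8 and 0.083, 0.188, 0.45, 0.282 and 0.25 CPM in CD4 (log2 fold change 5.14, SE 0.48, adjusted p 3.18e-07, no overlap). Every CD8 library lay far above every CD4 library. Ccr9, the gut homing receptor, had 1 count in all CD4 libraries and 2.85, 1.01, 3.05, 1.94 and 1.96 CPM in CD8, 247 times as much (95% counting interval 43.9 to 9810). Ccr2 and Selplg were not called (169 ± 39.4 against 105 ± 42.3 and 758 ± 46.1 against 797 ± 71.1 CPM; adjusted p 0.226 and 0.437). Among 23 integrin and adhesion genes, 9 were higher in CD8, 8 in CD4 and 6 not called. This is 73.9% called, against 38.1% of all genes. Itgb7, the beta chain of the gut integrins, stood at 1224, 939, 1326, 1344 and 1069.4 CPM in CD4 and 519.8, 545, 475, 487 and 481 CPM in CD8 (2.35-fold; log2 fold change -1.24, SE 0.11, adjusted p 2.32e-07, no overlap). L1cam and Icam2, adhesion molecules of the immunoglobulin family, were 4.93- and 2.94-fold higher in CD4 (adjusted p 1.3e-08 and 6.11e-05). Itgb1, the chain of the fibronectin receptors, was not called (0.49, adjusted p 0.145), although all CD8 libraries were above all CD4 libraries.

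Secreted factors were few: 19 of 33 genes passed the filter, and 8 were higher in CD8, 4 in CD4 and 7 not called. Among those tested 63.2% were called, against 38.1% of all genes. Xcl1, a chemokine by which CD8 T cells attract dendritic cells, stood at 9.59, 11.3, 7.8, 8.2 and 8.51 CPM in CD8 and 0.083, 0.282, 0.9, 0 and 0 CPM in CD4 (log2 fold change 5.23, SE 0.63, adjusted p 6.26e-06, no overlap; 6.63 without CD4 replicate 3). Spp1 (osteopontin) stood at 40.1, 43.4, 4.57, 25.3 and 18.4 CPM in CD8, lowest in replicate 3, and 0.539, 0.658, 0.7, 0.242 and 0.292 CPM in CD4 (log2 fold change 5.77, SE 0.96, adjusted p 0.000159, no overlap). Tgfb3 was 10.8-fold higher in CD8 (7.1 ± 2.31 against 0.653 ± 0.237 CPM; adjusted p 3.19e-05), while Tgfb1, expressed at a higher level, was not called (277 ± 24 and 256 ± 12.5 CPM; adjusted p 0.357).

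Of 22 inhibitory receptor and exhaustion genes tested, 10 were higher in CD8, 4 in CD4 and 8 not called (median 0.67). Called members were 63.6% of the list, against 38.1% of all genes. Cd160, a receptor of HVEM and MHC class I, stood at 71.8, 69, 41.5, 39.7 and 44.9 CPM in CD8 and 1.2, 1.03, 0.95, 0.928 and 0.667 CPM in CD4 (55.5-fold; log2 fold change 5.80, SE 0.46, adjusted p 4.65e-08, no overlap). Cd244a (2B4) stood at 23, 17.2, 1.93, 5.69 and 7.75 CPM in CD8, high in replicates 1 and 2, and 0.0415, 0.329, 0.2, 0.0806 and 0.0417 CPM in CD4 (log2 fold change 6.32, SE 0.97, adjusted p 7.32e-05, no overlap; 5.62 with CD8 replicates 4 and 5 alone). Havcr2 (TIM-3) stood at 9.85, 16.1, 0.528, 7.18 and 5.42 CPM in CD8 and 0.0415, 0.329, 0.1, 0.0403 and 0 CPM in CD4. CD8 replicate 3 was close to CD4 replicate 2 (log2 fold change 6.24, SE 1.02, adjusted p 0.000136, no overlap; 7.32 without CD4 replicate 2). Nr4a2, a factor induced by receptor signals, was 2.68-fold higher in CD8 (4.9 ± 1.01 against 1.83 ± 0.301 CPM; adjusted p 5e-05), whereas Tox, given above, was higher in CD4. Entpd1 (CD39) was not called (61.6 ± 10.8 against 37.2 ± 24.5 CPM; adjusted p 0.131), but was without CD4 replicate 2 (1.21, 0.00803; 0.00656 to 0.325 over all alternatives).

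The list of naive, central memory and stem memory genes leaned to CD4: of 26 tested, 15 were higher in CD4, 2 in CD8 and 9 not called. Its median log2 fold change was -0.75, and 65.4% of its tested members were called, against 38.1% of all genes. Lef1, Foxo1, S1pr1, Satb1, Bcl11b and Ets1, described above, were among the memory and quiescence genes higher in CD4. The Ly6 genes split. Ly6c1 stood at 28.2, 91.5, 10.7, 7.98 and 39.3 CPM in CD4 and 0.207, 0.119, 0.469, 0.53 and 0.301 CPM in CD8 (log2 fold change -6.68, SE 0.71, adjusted p 1.48e-06, no overlap; -5.96 without CD4 replicate 2), whereas its neighbour Ly6c2, named after its values were seen, stood at 708, 766, 852, 833 and 888 CPM in CD8 and 284, 482, 99.3, 37 and 70.7 CPM in CD4. Ly6c2 was 4.16-fold higher in CD8 (log2 fold change 2.06, SE 0.64, adjusted p 0.0168, no overlap; 2.72 without CD4 replicate 2), a call lost with either CD8 title range alone (0.0534 and 0.0648; 0.00301 to 0.0648 over all alternatives). The copies are near identical and reads shared between them were not counted, so their split is uncertain. Ly6a (Sca-1) was not called and varied most among CD4 libraries (501, 1296, 634, 192 and 231 CPM, against 506, 519.9, 436, 445 and 449.8 CPM in CD8; adjusted p 0.565).

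Of 22 survival and death genes, 7 were higher in CD8, 4 in CD4 and 11 not called (50% called, against 38.1% of all genes). Mcl1, a survival factor that IL-7 and IL-15 maintain, stood at 559, 545, 507, 541 and 496 CPM in CD4 and 276, 276, 330.0, 305 and 286 CPM in CD8 (1.8-fold; log2 fold change -0.85, SE 0.099, adjusted p 4.23e-06, no overlap). Bak1, a pore protein of mitochondrial death, was 1.5-fold higher in CD8 (adjusted p 0.00126), with CD8 replicate 3 the lowest CD8 library. Bcl2a1b, a survival gene with near-identical copies, was 4.57-fold higher in CD8 (3.61 ± 1.63 against 0.785 ± 0.278 CPM; adjusted p 0.00301). Casp8 was not called (182 ± 45.8 against 214 ± 22.9 CPM; adjusted p 0.158), but was without CD8 replicate 3 (-0.40, 0.00183; 0.00183 to 0.477 over all alternatives).

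Glycolysis genes were higher in CD8 in 15 of 24 cases, 2 were higher in CD4 and 7 not called (median 1.02). That is 70.8% called, against 38.1% of all genes. The summed level of the list was 14553 to 17277 CPM in CD8 and 4653 to 9379 CPM in CD4. Gpi1, the isomerase after hexokinase, stood at 1383, 1638, 1614, 1461 and 1510 CPM in CD8 and 835, 954, 572, 550.3 and 643 CPM in CD4 (log2 fold change 1.10, SE 0.20, adjusted p 0.000356, no overlap). Pgam1 and Eno3, a mutase and an enolase of the lower pathway, were 3.33- and 1.9-fold higher in CD8 (adjusted p 0.000775 and 4.27e-05). Ldhb, the lactate dehydrogenase chain of oxidative tissues, was 2.98-fold higher in CD4 (11.1 ± 1.48 against 3.71 ± 1.64 CPM; adjusted p 0.00171). Of 35 oxidative phosphorylation genes, 7 were higher in CD8, 1 in CD4 and 27 not called, with a median of 0.027 (22.9% called, against 38.1% of all genes). Amino acid supply and ATF4 target genes were higher in CD8 in 13 of 21 cases and the other 8 were not called. Their share called was 61.9%, against 38.1% of all genes. Slc7a5, the transporter of large neutral amino acids, stood at 234, 229, 169, 241 and 245 CPM in CD8 and 60.8, 109, 104, 99.9 and 117 CPM in CD4 (log2 fold change 1.19, SE 0.19, adjusted p 0.000126, no overlap). Asns, asparagine synthetase, stood at 93.5, 92, 28.5, 63.7 and 64.4 CPM in CD8 and 10.3, 19.9, 8.25, 6.37 and 20.2 CPM in CD4 (5.26-fold; log2 fold change 2.40, SE 0.38, adjusted p 0.000107, no overlap). Cholesterol and fatty acid synthesis genes were higher in CD8 in 10 of 27 cases and the other 17 were not called. The share called was 37%, against 38.1% of all genes called in either direction and 19.1% called higher in CD8. Insig1, a sterol-sensing regulator of the pathway, was 1.99-fold higher in CD8 (adjusted p 0.00106).

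Few proliferation genes passed the test. By edgeR, 0 of 37 S phase genes were called, against 38.1% of all genes, with a median of 0.50. At an unadjusted p under 0.05, 3 of them were higher in CD8 and 1 in CD4, and DESeq2 called 1 and limma-voom 4, all higher in CD8. Of 42 G2 and mitosis genes, 3 were called higher in CD8 (Dlgap5, Racgap1 and Tacc3), with a median of 1.16. The 3 calls were 7.14% of the list, against 19.1% of all genes called higher in CD8. With both libraries that stand apart left out, the median was 1.52. The summed G2 and mitosis list held 4454 to 11152 CPM in CD8, with replicate 3 the lowest and the next at 9219 CPM, and 2960 to 6498 CPM in CD4. Mki67, a proliferation marker named after its values were seen, stood at 1054, 948, 544, 1083 and 1058 CPM in CD8 and 435, 736, 572, 469 and 406 CPM in CD4 (log2 fold change 0.84, SE 0.61, adjusted p 0.287). It was called with only the 10 week 1 libraries in the fit (0.0105; 0.0105 to 0.496 over all alternatives). Dlgap5, a spindle protein gene, was 2.46-fold higher in CD8 (152, 149.7, 74.9, 174 and 174 CPM against 48.7, 92.9, 72.1, 45.9 and 35.8 CPM; adjusted p 0.0339). Its call was lost without any 1 of CD8 replicates 1, 2, 4 or 5 or CD4 replicates 1, 4 or 5 (adjusted p 0.0565 to 0.0775) and with either CD8 title range alone (0.142 and 0.0594; 0.00541 to 0.142 over all alternatives). The part of cell division in the metabolic differences was not tested.

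Interferon response genes were highest in CD4 replicate 2. Of 47 tested, 6 were higher in CD4 (12.8%, below the 19% of all genes called higher in CD4) and 41 not called. The median of -0.70 became 0.14 without CD4 replicate 2. The summed list stood at 21757 CPM in that library, at 3357 to 9865 CPM in the other CD4 libraries and at 4929 to 8921 CPM in CD8, with replicate 3 the highest. The 6 called members included Slfn1 and Slfn2, Schlafen genes of T cell quiescence. Slfn2 stood at 446, 564, 327, 296 and 339.7 CPM in CD4 and 151, 141, 202, 163 and 162 CPM in CD8 (log2 fold change -1.27, SE 0.16, adjusted p 7.76e-06, no overlap), and Slfn1 was 3.27-fold higher in CD4 (adjusted p 0.000316). In the MHC lists, H2-Q6, a class I gene with near-identical copies, and H2-Oa, a gene of the class II pathway, were 1.91- and 3.85-fold higher in CD8 (adjusted p 0.00286 and 0.000114). Both lists had a smaller share of called genes than the 38.1% of all genes. Of 24 class I genes 2 were called (8.33%), both higher in CD8. Of 11 class II genes 3 were called (27.3%), 2 higher in CD8 and 1 in CD4.

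Among feedback genes of receptor signalling, Dgka, the kinase that removes diacylglycerol, stood at 1373, 1103, 963, 1056 and 1111 CPM in CD4 and 434, 441, 618, 505 and 484 CPM in CD8 (log2 fold change -1.18, SE 0.13, adjusted p 1.94e-06, no overlap). Spry2, an inhibitor of MAP kinase signalling, stood at 7, 6.38, 5.92, 6.37 and 6.85 CPM in CD8 and 0.0415, 0.188, 0.15, 0.0403 and 0.0833 CPM in CD4 (63.1-fold; log2 fold change 5.98, SE 0.69, adjusted p 3.91e-06, no overlap). The CD8 libraries of Spry2 were within a narrow range. Of 24 feedback genes, 5 were higher in CD8, 4 in CD4 and 15 not called (37.5% called, against 38.1% of all genes). Kmt2d, a histone methyltransferase of enhancers, was 1.8-fold higher in CD4 (adjusted p 0.000584), 1 of 6 called among 23 chromatin enzymes (26.1%). Among the 8 Gimap GTPases of lymphocyte survival (37.5% called), Gimap5 was 1.43-fold higher in CD8 and Gimap3 1.42-fold higher in CD4 (adjusted p 0.000655 and 0.00156). Of 84 ribosomal protein genes (25% called), 18 were higher in CD4 and 3 in CD8, by small folds. Rps29 was 1.38-fold higher in CD4 and Rpl41 1.24-fold higher in CD8 (adjusted p 0.000243 and 0.00541). None of these lists had a larger share of called genes than all genes tested.

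**Figure D4:**
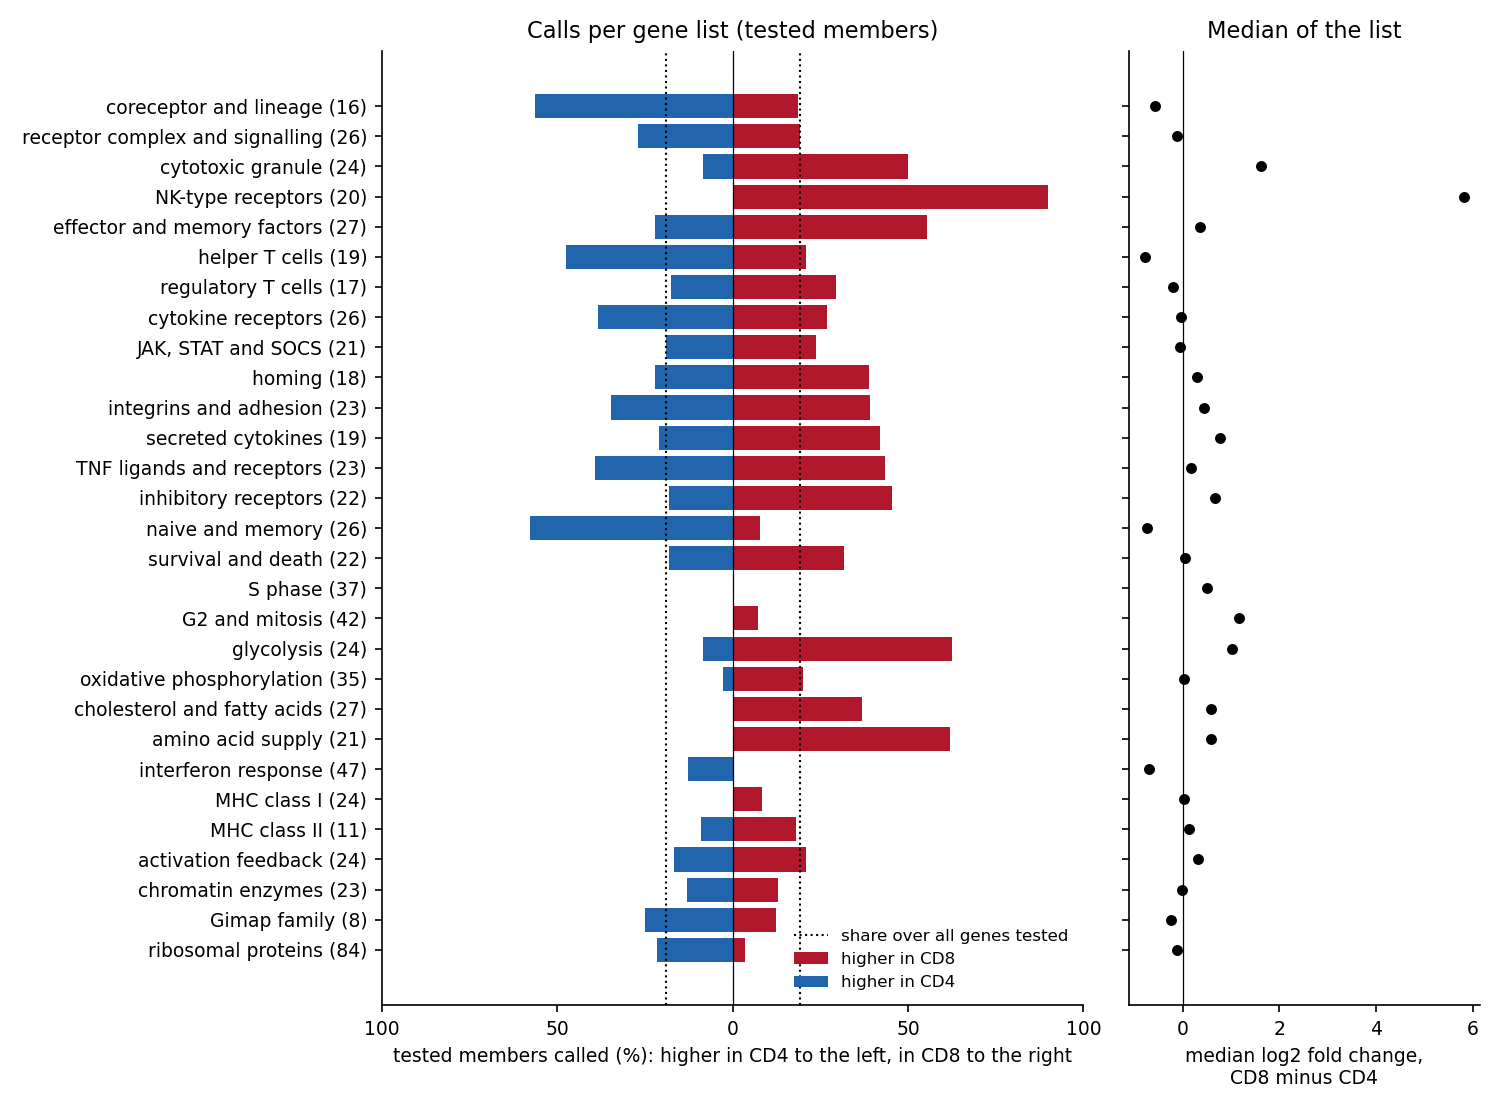
For each gene list (number of tested members in parentheses), the left panel gives the percentage of tested members called higher in CD8 (red, to the right) or in CD4 (blue, to the left), with dotted lines at the shares over all genes tested (19.1% and 19%), and the right panel the median log2 fold change. NK-type receptors have the largest share in CD8 and the largest median (5.82), and the naive and memory list the largest share in CD4. Members counted in a single lineage also pass the filter on low counts.

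The largest differences across all genes also included genes outside these lists. St8sia6, a sialyltransferase gene, had no count in any CD8 library and stood at 10.9, 14.5, 7.3, 17.9 and 17.2 CPM in CD4. It was at least 436-fold higher in CD4, from a floor of 3 counts over the CD8 group. Ptgir, the prostacyclin receptor, stood at 50, 59.3, 34.2, 34.1 and 30.1 CPM in CD4 and 1.56, 1.55, 2.05, 1.2 and 1.28 CPM in CD8 (27.2-fold; log2 fold change -4.77, SE 0.29, adjusted p 1.6e-09, no overlap). Snn (stannin) and Trat1, a receptor-interacting adaptor, were 22.8- and 22.2-fold higher in CD4 (52.1 ± 18.4 against 2.28 ± 0.887 and 12.1 ± 6.75 against 0.544 ± 0.387 CPM; adjusted p 9.77e-08 and 9.67e-06; Trat1 -5.26 on the log2 scale with CD8 replicates 4 and 5 alone). Pdlim4, a LIM domain protein of the cytoskeleton, and Nav1, a microtubule-binding protein, shared an uneven pattern in CD4 libraries. Pdlim4 stood at 27.5, 8.65, 40, 41.7 and 22.1 CPM in CD4 and 0.0519, 0, 0.762, 0.389 and 0.151 CPM in CD8 (log2 fold change -6.61, SE 0.95, adjusted p 3.85e-05, no overlap; -7.28 without CD8 replicate 3). Nav1 stood at 22.9, 1.74, 29.5, 55.3 and 20.8 CPM in CD4 and 0.104, 0.656, 0.234, 0.53 and 0.376 CPM in CD8 (log2 fold change -6.06, SE 0.85, adjusted p 3.11e-05, no overlap). Replicate 2 was the lowest CD4 library for both.

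On the CD8 side, Emilin2, an extracellular matrix glycoprotein gene, stood at 131, 177, 52.9, 119 and 103 CPM in CD8 and 0.0415, 1.46, 0.05, 0.0806 and 0.208 CPM in CD4 (323-fold; log2 fold change 8.34, SE 1.18, adjusted p 3.44e-05, no overlap; 10.15 without CD4 replicate 2). Tubb6, a beta tubulin gene, stood at 114, 99.6, 14.4, 66.3 and 90.7 CPM in CD8, with replicate 3 lowest, and 0.249, 0.8, 0.45, 0.161 and 0.125 CPM in CD4 (218-fold; log2 fold change 7.77, SE 1.23, adjusted p 0.000104, no overlap; 8.57 without both libraries that stand apart). Gas7, whose protein binds actin, stood at 22.5, 23.9, 7.21, 11.9 and 11.6 CPM in CD8 and 0, 0.188, 0.15, 0.0403 and 0.0417 CPM in CD4 (181-fold; log2 fold change 7.50, SE 1.02, adjusted p 2.39e-05, no overlap; 8.19 without both). The orphan receptor gene Gpr160 stood at 12.7, 17.8, 6.33, 10.2 and 8.81 CPM in CD8 and 0, 0.047, 0.15, 0.0806 and 0.125 CPM in CD4 (log2 fold change 7.04, SE 0.52, adjusted p 2.09e-08, no overlap). Gpr141, another orphan receptor gene, stood at 26.1, 44.1, 1.35, 22.3 and 17.3 CPM in CD8, with replicate 3 far below the rest, and had counts in CD4 replicate 2 alone among the CD4 libraries (0.282 CPM). Itgax, which encodes the integrin CD11c, stood at 20.1, 25.7, 1.52, 2.72 and 2.63 CPM in CD8 and 0.124, 0.047, 0.05, 0.121 and 0 CPM in CD4 (log2 fold change 7.12, SE 1.24, adjusted p 0.000238, no overlap; 6.49 without CD8 replicate 2, 7.73 with CD8 replicates 1 to 3 alone and 5.18 with replicates 4 and 5 alone). Replicates 1 and 2 stood high for Itgax, as for Klrb1c, Cd244a and Gzma, and replicates 3 to 5 lower.

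The lineage difference was then set beside that of the long-term groups (CD8 week 4 minus CD4 week 3), which differ in weeks as well as lineage, so that in them lineage and weeks cannot be told apart. Of the 2538 genes higher in CD8 at week 1, 1606 (63.3%) were called higher in CD8 in the long-term groups, 6 were called in the opposite direction and 926 were not called. Of the 2526 genes higher in CD4, 1415 (56.02%) were called again, 4 in the opposite direction and 1107 not. The change of the difference itself, tested as an interaction with all 20 libraries taken as separate (the labels do not say whether a week 1 and a long-term library share a culture), was called for 87 of 13290 genes (0.655%), 33 positive and 54 negative. This count depends on the libraries: without CD8 week 1 replicate 3 it was 156 and 161, and without CD8 week 1 replicate 4 it was 10 and 18. Differences of Cd8b1, Klrk1, Prf1, Gzmb, Zbtb7b and Runx1 stood at 7.09, 5.87, 3.24, 2.43, -2.49 and -2.60 on the log2 scale in the long-term groups, and none of these changes was called.

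Of the genes described here, the change was called for 12, and for 4 of these (Itgae, Il4ra, Il7r and Ptgir) it was called in each of the 14 alternatives tried for it. These alternatives left out week 1 libraries only, so they cannot show whether a call rests on a long-term library. Itgae stood at 8.49 ± 2.85 CPM in CD8 and 0.627 ± 0.37 CPM in CD4 at week 1, and at 0.571 ± 0.303 and 1.63 ± 1.54 CPM in the long-term groups (change -5.28 on the log2 scale, adjusted p 0.00998). Il4ra, 1.69-fold higher in CD4 at week 1, stood at 826 ± 119 and 757 ± 68.9 CPM in the long-term CD8 and CD4 groups (change 0.88 on the log2 scale, adjusted p 0.00348). For Il7r the difference was larger in the long-term groups, at 12.9 ± 5.09 CPM in CD8 and 374 ± 200 CPM in CD4 (change -3.49 on the log2 scale, adjusted p 0.0135). Ptgir also had a larger difference, with 0.085 ± 0.0756 and 35.7 ± 8.44 CPM (change -3.93 on the log2 scale, adjusted p 0.00103).

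The calls of the following 8 genes were each lost when 1 or another week 1 library was left out. Slc7a5, higher in CD8 at week 1, stood at 89.4 ± 16.6 and 90.1 ± 26.9 CPM in long-term CD8 and CD4 libraries (change -1.20 on the log2 scale, adjusted p 0.0465; called in 6 of 14 alternatives, adjusted p 0.00265 to 0.0938). Ikzf2 stood at 4.76 ± 1.07 and 2.65 ± 0.87 CPM (change -1.64 on the log2 scale, adjusted p 0.0358; called in 7 of 14 alternatives, adjusted p 0.000863 to 0.0746). Tnfsf8 stood at 314 ± 52.6 and 319 ± 46.6 CPM (change 0.76 on the log2 scale, adjusted p 0.0358; called in 7 of 14 alternatives, adjusted p 0.00151 to 0.0821). All 3 calls stood when CD8 replicate 3, CD4 replicate 2 or CD4 replicate 5 was left out, and were lost without any other single library. Gimap3 stood at 1830 ± 170.1 and 1522 ± 213 CPM (change 0.78 on the log2 scale, adjusted p 0.0335; called in 10 of 14 alternatives, adjusted p 0.000887 to 0.0709), a call lost without CD8 replicate 2, 4 or 5 or CD4 replicate 1. Maf stood at 3.36 ± 2.71 and 2.36 ± 0.931 CPM (change 3.47 on the log2 scale, adjusted p 0.0458; called in 5 of 14 alternatives, adjusted p 0.000926 to 0.103), a call that stood only without CD8 replicate 3 or CD4 replicate 5 among the 10 libraries left out in turn. Ccr9 and Klri2 had 1 count each in the CD4 libraries of week 1. The fitted change of Ccr9 was -6.03 on the log2 scale, adjusted p 0.0341 (called in 10 of 14 alternatives, adjusted p 0.00142 to 0.0583), lost without CD8 replicate 4 or 5 or CD4 replicate 1 or 3. That of Klri2 was -4.05 on the log2 scale, adjusted p 0.0335 (called in 9 of 14 alternatives, adjusted p 0.00681 to 0.0673), lost without CD8 replicate 4 or 5 or CD4 replicate 1, 3 or 4. Cd4 had no count in any CD8 week 4 library, and its fitted change (-5.42 on the log2 scale, adjusted p 0.0335; called in 10 of 14 alternatives, adjusted p 0.000333 to 0.0686) depends on the prior count and is no bound; it was lost without CD8 replicate 2 or 4 or CD4 replicate 3 or 4.

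**Figure D5:**
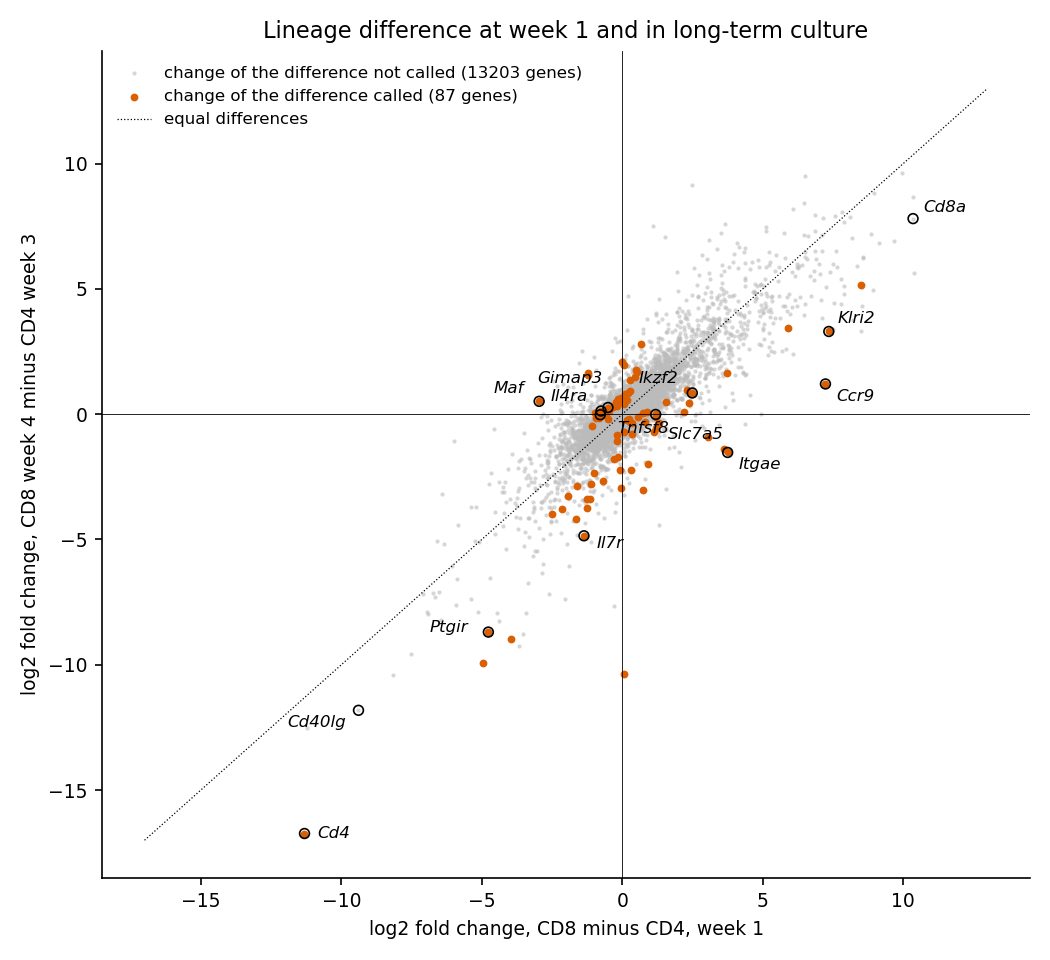
Each point is 1 gene, with the log2 fold change of CD8 minus CD4 at week 1 on the x axis and that of CD8 week 4 minus CD4 week 3 on the y axis. Orange points are the 87 genes whose change of the difference was called, the dotted line marks equal differences, and Itgae, Ccr9 and Maf lie away from it.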

How the data were processed

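RNA of 20 mouse T cell libraries was sequenced (polyA RNA, a stranded Illumina kit, per the labels). Per the file headers, the authors counted reads per gene with featureCounts 1.6.3 in reverse-stranded mode on GENCODE M12; the alignments came from STAR on mm10, per the submitters' processing notes. Their deposited values are whole raw read counts, not normalised, and the command in the file header sets no option to count reads that map to several places. Symbols were taken from GENCODE M21 by gene ID for 49412 of 49671 genes.

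All 20 libraries entered 1 fit of 4 group means in edgeR 4.0.16 (R 4.3.3) with filterByExpr, TMM factors and the quasi-likelihood test. Benjamini-Hochberg adjustment ran over all 13290 genes tested, with a threshold of 0.05. CPM were computed on TMM-scaled totals, TPM from the exon lengths of the table, and the change of the difference as an interaction in the same fit. The scripts were tested on simulated data. No replicate pair agreed within counting noise, so none was treated as a duplicate.

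The members, gene lists and tests were chosen with earlier results of these data known. Genes are named by rule: all tested coreceptor and lineage genes; the 12 largest differences each way at 10 CPM or more with no overlap; and from each list up to 5 (T cell lists) or 4 (general lists) called genes with the smallest adjusted p, plus from T cell lists the 3 most abundant not called. It yields 180 genes, of which 130 are described and 50 are not; 8 others were chosen after their values were seen. Alternatives covered other scalings, filters, tests (DESeq2 1.42.0, limma 3.58.1), libraries left out and CD8 title ranges. A test against a 1.5-fold difference was also run and is left out of the adjusted p ranges over all alternatives. Counts of 1 to 3 in a group carry a 95% counting interval, and a group at 0 a floor of 3 counts; both cover counting error only. Exact binomial ratios used scipy 1.17.1.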

Additional observations from a re-analysis of the deposited data

Results flagged for a closer look

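Some values lay far from the rest of their group: the gap to the nearest library was more than 0.71 of the range of the 5 libraries. This held for 31 of the 258 groups of 5 week 1 libraries examined over the genes described (12%). For independent, normally distributed values chance gives about 1 in 20. The groups all come from the same 10 libraries, so the flags are not independent and the excess was not tested. All values are in CPM, with the range of the other 4 libraries. CD8 replicate 3 was the outlying library in most of the CD8 cases. It stood high for 12 genes. Among them were Tle3 (295, others 158 to 192), Eomes (342, others 138 to 166), Tnfrsf1b (172, others 125 to 136), Il10rb (99.6, others 75.8 to 79.5), Il6ra (44, others 0.207 to 5.87) and Socs2 (150.2, others 28.7 to 55.4). The others were Jak1 (847, others 709 to 735), Ltb (419, others 283 to 319.8), Tnfrsf25 (8.5, others 0.467 to 1.38), Casp8 (263, others 148 to 174), Insig1 (197, others 109.8 to 119) and Slfn1 (231, others 103 to 137). It stood low for Gata3 (21.2, others 48.7 to 55.3), Slc7a5 (169, others 229 to 245), Dlgap5 (74.9, others 149.7 to 174) and Mki67 (544, others 948 to 1083). CD4 replicate 2 stood high for 12 genes. Among them were Gzma (6.07, others 0.125 to 1.8), Ets1 (1150, others 1077 to 1089), Zeb2 (0.7996, others 0 to 0.083), Eomes (22.6, others 0.333 to 2.85), Tbx21 (48.8, others 22.9 to 30.3) and Maf (20.1, others 2.54 to 7.14). The others were Il7r (398, others 125 to 192), Jak2 (304, others 159.6 to 180.4), Cd44 (111, others 80.4 to 88.1), Fasl (18.2, others 3.95 to 7.54), Emilin2 (1.46, others 0.0415 to 0.208) and H2-Oa (23.1, others 4.88 to 9.92). CD8 replicate 2 stood high for Gzmm (15.7, others 7.98 to 9.48) and Fasl (87.1, others 68.8 to 69.7), and CD4 replicate 4 for  and Ptprc (2630, others 2289 to 2376).

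For 12 of the genes described, the interaction test called a change of the lineage difference from week 1 to the long-term groups. These groups are CD8 week 4 and CD4 week 3. The log2 changes of the difference were Cd4 (-5.42, adjusted p 0.0335), Klri2 (-4.05, adjusted p 0.0335), Ikzf2 (-1.64, adjusted p 0.0358), Tnfsf8 (0.76, adjusted p 0.0358), Maf (3.47, adjusted p 0.0458), Itgae (-5.28, adjusted p 0.00998), and further Il4ra (0.88, adjusted p 0.00348), Il7r (-3.49, adjusted p 0.0135), Ccr9 (-6.03, adjusted p 0.0341), Ptgir (-3.93, adjusted p 0.00103), Slc7a5 (-1.20, adjusted p 0.0465) and Gimap3 (0.78, adjusted p 0.0335). A positive value is a difference that moved towards CD8. Only the calls of Itgae, Il4ra, Il7r and Ptgir stood in each of the 14 alternatives. Those of the other genes were lost when some single week 1 library was left out, and the value of Cd4 depends on the prior count.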

How the results depend on the processing

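The numbers of genes called higher in CD8 (2538) and in CD4 (2526) stayed within 1.5 times of these values under other scaling factors, DESeq2, limma-voom, other filters, a fit of the 10 week 1 libraries alone, and with each week 1 library left out in turn (2187 to 2962 and 2113 to 3088). They left that range in a test against a 1.5-fold difference (908 and 508) and, for CD4, with CD8 replicates 4 and 5 alone (1658). Upper-quartile factors gave 2373 and 2764. The counts of called changes of the difference (33 positive, 54 negative) were 156 and 178 by DESeq2, and 10 to 156 and 18 to 161 with each week 1 library left out in turn, the high ends without CD8 replicate 3. With both libraries that stand apart left out, an alternative chosen after seeing the data, they were 152 and 185. The cause was not tested.

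Of the 114 called genes described, 87 kept their call in every alternative that tested them, the test against 1.5-fold included. In that test 25 lost it. The sign turned for list medians and for genes that were not called, in log2 units. With each week 1 library left out in turn, the median of regulatory T cell genes ran from -0.2903 to 0.0353, Tle3 from -0.0753 to 0.1809, Ptprc from -0.0398 to 0.0741, Hcst from -0.1573 to 0.064, Bcl6 from -0.3074 to 0.052 and Ly6a from -0.4996 to 0.2734. With both libraries that stand apart left out, the values were 0.0091 for JAK, STAT and SOCS genes, -0.0791 for Tle3, -0.0549 for Ptprc, 0.0386 for Bcl6 and 0.3005 for Ly6a. At 5 CPM or more in 5 libraries, regulatory T cell genes stood at 0.0178 and Hcst at 0.0011. Hcst was 0.0051 with RLE factors and 0.0049 by DESeq2. By limma-voom, Ly6a was 0.066 and the interferon list -0.0733 in place of -0.70. Medians near 0 also turned sign within the spread between libraries: the lowest were -0.0073 for survival and death, -0.0006 for oxidative phosphorylation, -0.0616 for MHC class I and -0.3885 for MHC class II genes, and the highest 0.0516 for chromatin enzymes. The interferon median reached 0.1393 without CD4 replicate 2. With CD8 replicates 1 to 3 alone, Trbc2 was 0.0265 and Hcst 0.1105, and with CD8 replicates 4 and 5 alone Srgn was -0.0192. At 13.3 M reads or more per library, levels near single counts are the least certain. No paired analysis was run because no label ties libraries to each other. Title numbers of week 1 and long-term libraries alternate, but the labels state no pairing by them.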
